A study of Mus musculus with 6 samples.

Results

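Leukocytes leave the blood by rolling, arresting and crossing on adhesion molecules of the vessel wall, and 8 genes for such molecules were followed: Selp, Sele, Vcam1, Icam1, Icam2, Ackr1, Jam2 and Cd34. They were chosen by name and found through the RefSeq names of the array probes, which gave 11 probes, and they are 8 of the 16421 genes tested. Vcam1, Jam2 and Cd34 each had 2 probes and the other 5 genes had 1. All 11 probes were well above background on all 6 arrays.

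The cells were CD45-negative cells of mouse lung, taken without treatment (day 0) or 28 or 40 days after aspiration of silica, the mineral dust that causes silicosis. WT mice were C57BL/6J. Ccr2KO mice were of strain B6.129S4-Ccr2tm1Ifc/J, which carries a targeted allele of Ccr2, the chemokine receptor that brings monocytes out of the bone marrow into tissue. Mice were 7 to 9 weeks old when the experiments began, and the untreated groups are the controls of each genotype. Perfused lungs had been digested with enzymes and depleted of erythrocytes and silica on a Percoll gradient before magnetic removal of CD45-bearing cells. Each of the 6 groups (genotype by day) is a single RNA pool of 3 biological replicates read on 1 array, so there is no spread between animals and every p-value measures only what the fitted model left unexplained, which is an additive model of day and genotype unless another is named.

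Levels are on the log2 scale, with each array's 75th percentile of signal set to 0, so a difference of 1 is a 2-fold change, and they can be compared between arrays for a given probe but not between probes. The 75th percentile itself lay between 792.9 and 1179 signal units and 58.1 to 64.3% of probes were well above background. Ccr2 read 0.09, 1.38 and −1.70 in WT cells (untreated, day 28, day 40) and −5.07, −1.51 and −3.64 in Ccr2KO cells, lower in the knockout on each day. The preparations held endothelial RNA: 15 of 15 pan-endothelial genes were measured, with a mean log2 level of 4.46, 3.87 and 4.61 in WT cells and 4.23, 3.91 and 4.26 in Ccr2KO cells. They also held RNA of other cells, and a mean over 8 leukocyte genes was 2.70, 3.94 and 1.64 in WT cells and 1.65, 3.51 and 1.15 in Ccr2KO cells. In such bulk RNA, a change in the number of cells of a type and a change in RNA per cell cannot be told apart.

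As background, P-selectin (Selp) and E-selectin (Sele) are endothelial lectins that catch passing leukocytes by their sialylated glycans. P-selectin is stored in Weibel-Palade bodies and can reach the surface at once, and E-selectin is made anew in endothelium activated by cytokines such as TNF and IL-1. VCAM-1, ICAM-1 and ICAM-2 belong to the immunoglobulin superfamily and hold leukocyte integrins, ACKR1 carries chemokines across venules without signalling, JAM-B (Jam2) sits at endothelial junctions, and CD34 is a sialomucin of endothelium, progenitors and some fibroblasts.

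After silica, 4 of the 8 genes rose in the comparison of both silica days with untreated cells: Ackr1, Selp, Sele and Jam2. None of the 8 passed as lower, though Icam2 did in 5 of 17 alternative settings and Icam1 in 1. Over all 16421 genes, 19.8% passed the same test (limma, adjusted p below 0.05), with 10.5% higher and 9.33% lower. The median difference of the 8 genes was 0.84 log2, against −0.01 for all genes.

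**Figure D1:**
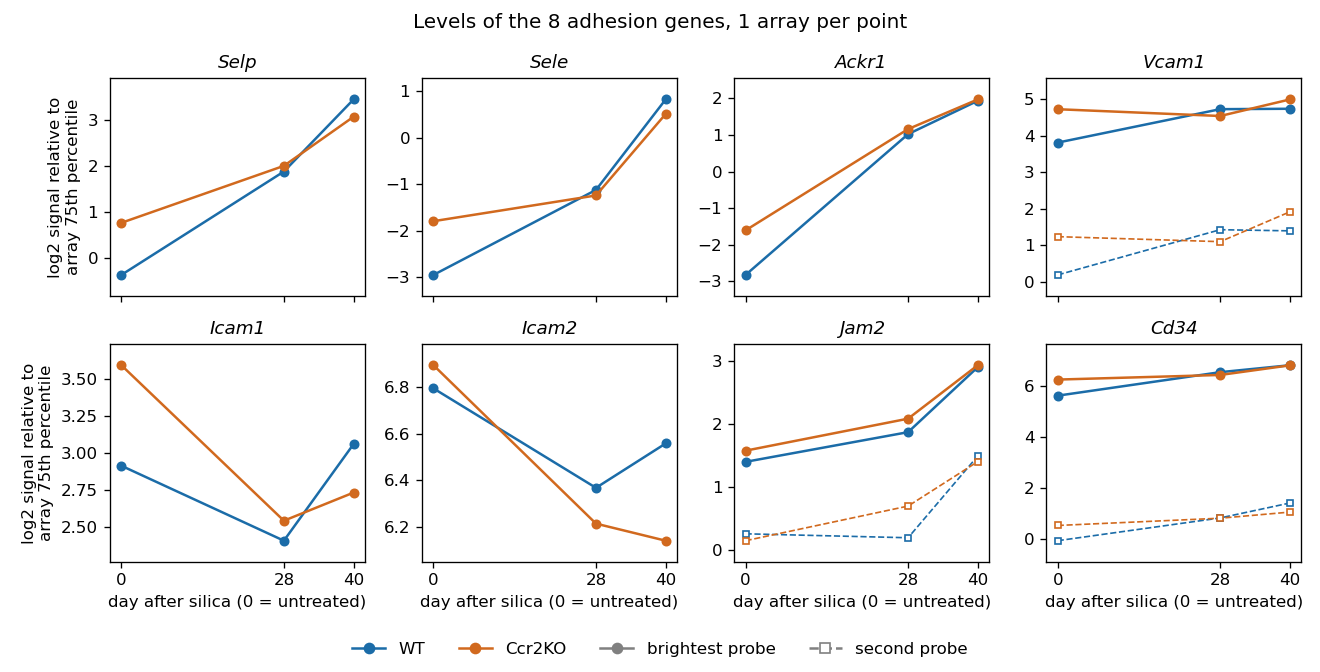
Log2 level above or below the array's 75th percentile (vertical axis) for each of the 11 probes of the 8 genes, on the 3 days (horizontal axis) in WT cells and Ccr2KO cells, 1 array per point. Heights are comparable within a probe and not between probes. On all 4 silica arrays, Selp, Sele, Ackr1, both Cd34 probes and the brighter Jam2 probe lay above both untreated arrays. Of all genes, 25.4% met the looser rule of lying above their own genotype's untreated array in 4 of 4 pairs.

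Selp, the gene of the selectin that starts rolling, read −0.36, 1.88 and 3.44 in WT cells (untreated, day 28, day 40) and 0.77, 2.0 and 3.07 in Ccr2KO cells. The deposited signal behind these log2 levels was 919, 4270.5 and 9554 units in WT cells and 1651, 3912.5 and 6648.5 units in Ccr2KO cells. Every silica array stood above both untreated arrays, and day 40 stood above day 28 in each genotype. Selp rose by 2.39 ± 0.34 log2 (difference ± SE, limma adjusted p = 0.0197, 4 silica against 2 untreated arrays). Its probe was printed 10 times on each array, and the standard deviation over these spots was 0.0341 to 0.0667 log2, which is the error of reading a spot and not that of an animal.

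Sele, the cytokine-induced selectin, was read as −2.95, −1.12 and 0.82 in WT cells and −1.80, −1.24 and 0.51 in Ccr2KO cells. The groups did not overlap, but the Ccr2KO day 28 array lay only 0.55 above its own untreated array, while WT day 28 lay 1.83 above its own. Sele rose by 2.11 ± 0.35 log2 over both silica days (limma adjusted p = 0.0266). At day 40 it was 3.04 ± 0.40 above untreated (adjusted p = 0.0215), nearly the same distance as Selp at 3.05 ± 0.39 (adjusted p = 0.0203).

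Ackr1, which encodes the atypical chemokine receptor of venular endothelium and of erythrocytes, had the largest difference of the 8 genes. Its level was −2.82, 1.02 and 1.94 in WT cells and −1.61, 1.16 and 1.97 in Ccr2KO cells. After silica the 2 genotypes lay within 0.14 log2 of each other on each day, whereas untreated Ccr2KO cells lay 1.22 above untreated WT cells. Ackr1 rose by 3.74 ± 0.29 log2 (limma adjusted p = 0.00864). It was the only one of the 8 genes that passed at day 28 alone, with 3.31 ± 0.34 (adjusted p = 0.0138), where 17.2% of all genes passed and 9.2% passed as higher. Selp at day 28 was 1.74 ± 0.39 above untreated (adjusted p = 0.0534) and Sele 1.19 ± 0.40 (adjusted p = 0.120).

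Selp and Ackr1 were at least 2-fold higher in all 4 pairs of a silica array with the untreated array of its genotype, as were 3.38% of all genes. The pairs of Ackr1 differed by 3.85 and 4.76 in WT cells and by 2.77 and 3.58 in Ccr2KO cells (day 28, day 40). Those of Selp differed by 2.24 and 3.80 in WT cells and by 1.23 and 2.30 in Ccr2KO cells.

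Selp, Sele and Ackr1 all rose, and the 300 bases around their start sites are printed here because the 3 genes differ in the short motifs found there. RefSeq (GRCm38.p6) gives a window of 250 bases before to 50 bases after the start for 5 of the 8 genes, namely Selp, Sele, Icam1, Ackr1 and Cd34. Capitals mark matches, on either strand, to TGANTCA, to TATAAA or to a loose kappaB-like pattern, GGG and CC with any 5 bases between them. The Selp window is chr1:164115014-164115313 on the plus strand, the Sele window chr1:164047984-164048283 on the plus strand, and the Ackr1 window chr1:173333454-173333753 on the minus strand, each written 5′ to 3′ along the gene.
Selp: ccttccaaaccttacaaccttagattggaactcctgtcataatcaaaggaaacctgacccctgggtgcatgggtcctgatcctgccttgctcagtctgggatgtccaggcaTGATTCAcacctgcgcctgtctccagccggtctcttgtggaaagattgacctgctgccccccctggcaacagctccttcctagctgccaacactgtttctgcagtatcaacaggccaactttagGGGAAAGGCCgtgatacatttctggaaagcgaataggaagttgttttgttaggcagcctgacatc
Sele: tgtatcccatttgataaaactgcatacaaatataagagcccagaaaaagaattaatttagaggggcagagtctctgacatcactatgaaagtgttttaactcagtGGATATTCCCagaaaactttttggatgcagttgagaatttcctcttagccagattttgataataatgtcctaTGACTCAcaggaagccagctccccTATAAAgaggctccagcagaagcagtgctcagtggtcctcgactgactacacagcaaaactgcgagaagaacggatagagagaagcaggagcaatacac
Ackr1: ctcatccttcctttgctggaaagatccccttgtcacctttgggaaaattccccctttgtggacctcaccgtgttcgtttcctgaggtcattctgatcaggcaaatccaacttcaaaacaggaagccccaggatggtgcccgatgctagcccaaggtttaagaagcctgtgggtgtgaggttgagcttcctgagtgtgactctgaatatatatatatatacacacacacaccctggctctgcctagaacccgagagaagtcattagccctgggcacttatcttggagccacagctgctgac

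The Sele window held GGATATTCCC at position −145 from the start, TGACTCA at −73 and TATAAA at −49. The Selp window held TGATTCA at −139 and GGGAAAGGCC at −15 and no TATAAA, and the Ackr1 window held none of the 3 motifs. Of 32851 promoter windows of this length, 50.8% held the loose pattern, 7.81% TGANTCA and 13.6% TATAAA, and 1.54% held both of the last 2, as Sele did. The stricter kappaB consensus, every match of which is also a match of the loose pattern, was in none of the 5 windows and in 4.51% of all windows. A match describes letters only, and binding was not measured.

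Vcam1, Icam1 and Icam2 did not pass in the comparison of both silica days with untreated cells. Vcam1, whose product holds integrins with the alpha chain Itga4, read 3.81, 4.72 and 4.73 in WT cells and 4.72, 4.54 and 4.99 in Ccr2KO cells on its brighter probe. WT cells were 0.91 and 0.92 higher after silica, and Ccr2KO cells differed by −0.19 and 0.27. The difference was 0.48 ± 0.25 (adjusted p = 0.238). The second probe read 0.20, 1.43 and 1.40 in WT cells and 1.24, 1.1 and 1.92 in Ccr2KO cells, the same order within each genotype at day 28, with a difference of 0.74 ± 0.30 (adjusted p = 0.164 over probes).

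Icam1, the inducible ligand of the integrin LFA-1 and also a surface protein of type I alveolar cells, read 2.92, 2.41 and 3.06 in WT cells and 3.59, 2.55 and 2.74 in Ccr2KO cells. Both day 28 arrays lay below both untreated arrays, and WT day 40 lay between the untreated arrays. The silica difference was −0.57 ± 0.23 (limma adjusted p = 0.160). Type I alveolar genes moved in the same samples: 6 of 7 fell after silica, with a median of −1.37 and a mean log2 level of 4.87, 3.89 and 3.90 in WT cells and 5.24, 3.75 and 3.52 in Ccr2KO cells. Their part in the Icam1 values was not tested.

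Icam2, the ligand that resting endothelium carries, read 6.79, 6.37 and 6.56 in WT cells and 6.89, 6.21 and 6.14 in Ccr2KO cells. All 4 silica arrays lay below both untreated arrays, and 28.7% of all genes met the looser rule of lying below their own genotype's untreated array in 4 of 4 pairs. The difference was −0.53 ± 0.14 (limma adjusted p = 0.0731). 

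Jam2, the junctional molecule, read 1.40, 1.87 and 2.91 in WT cells and 1.58, 2.09 and 2.94 in Ccr2KO cells. Day 28 was above untreated and day 40 above day 28 in both genotypes, and the genotypes lay within 0.21 of each other on every day. Jam2 rose by 0.96 ± 0.10 (limma adjusted p = 0.0120), and its second probe differed by 0.74 ± 0.17 (adjusted p = 0.0548 over probes). That second probe read 0.26, 0.20 and 1.5 in WT cells and 0.15, 0.70 and 1.41 in Ccr2KO cells, so that WT day 28 did not exceed WT untreated on it.

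Cd34, the sialomucin, read 5.64, 6.56 and 6.83 in WT cells and 6.27, 6.45 and 6.83 in Ccr2KO cells. All silica arrays exceeded both untreated arrays, by little for Ccr2KO at day 28 (0.18) and by more for WT (0.93 and 1.20). The difference was 0.72 ± 0.19 (limma adjusted p = 0.0723), and the second probe gave 0.80 ± 0.22 (adjusted p = 0.0804 over probes). Fibroblast genes, another source of Cd34, moved too: 4 of 8 rose and 1 fell after silica, with a mean log2 level of 4.66, 5.30 and 5.23 in WT cells and 4.67, 5.40 and 5.74 in Ccr2KO cells. Their part in the Cd34 values was not tested.

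**Figure D2:**
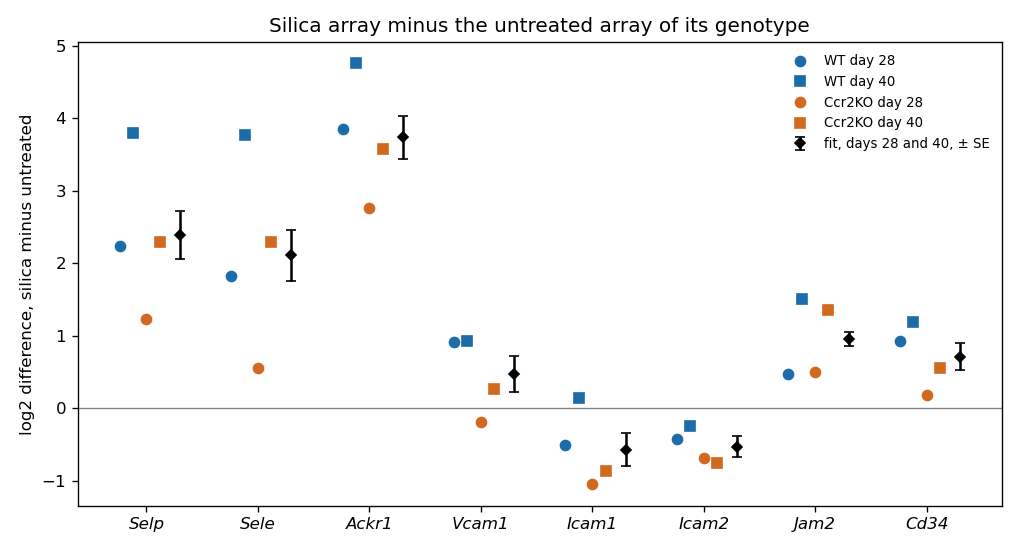
Log2 difference of each silica array from the untreated array of its genotype (vertical axis) for the 8 genes (horizontal axis). Each gene has 4 points, for WT and Ccr2KO at days 28 and 40, and a diamond for the fitted difference over both days ± SE. Selp, Sele, Ackr1, Jam2 and Cd34 were above 0 in all 4 pairs, and Icam2 was below 0 in all 4.

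Counted over the 4 pairs, 5 of the 8 genes were higher in every pair (25.4% of all genes were) and 1 was lower in every pair. Relative to the pan-endothelial mean these counts were 6 and 0, and 5 and 2 with the authors' unscaled table. The share of all genes was not counted on either of these scales. The pairs of a genotype share their untreated array and are not independent of each other. Against untreated cells at day 40 alone, the genes that passed were Selp, Sele, Ackr1 (4.17 ± 0.34, adjusted p = 0.0126) and Jam2 (1.43 ± 0.11, adjusted p = 0.0126), which is 4 of 8 where 15.2% of all genes passed and 8.45% passed as higher. Cd34 at day 40 was 0.88 ± 0.22 above untreated (adjusted p = 0.0735) and Vcam1 0.60 ± 0.29 (adjusted p = 0.228).

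The silica calls rest on few arrays. Both untreated arrays were in slide row 1 and both day 40 arrays in row 2, so the row differed within a day only at day 28. A fit with the row as a block therefore gave the same day 28 differences as one without WT day 28 (Selp 1.61 in both). The 2 fits are not separate checks. In a fit with the slide row as a block, 0 of 16421 genes passed, and Selp differed by 2.20 (adjusted p = 0.354), Sele by 1.71 (0.411), Ackr1 by 3.37 (0.261) and Jam2 by 1.04 (0.266). Without the WT day 28 array, or without the Ccr2KO day 28 array, no gene of the 16421 passed either, while Ackr1 still differed by 3.62 (adjusted p = 0.0853) and 3.86 (0.0821), and Sele without WT day 40 differed by 1.91 (0.0533).

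Between the 2 silica days, Jam2 rose further, by 0.94 ± 0.11 from day 28 to day 40 (limma adjusted p = 0.0408), the only one of the 8 genes to pass where 2.73% of all genes passed and 0.201% passed as higher. Jam2 passed this comparison in 4 of 16 alternative settings, and not with quantile normalization (0.87, adjusted p = 0.0565), the authors' table (0.59, 0.0588), no filter (0.94, 0.0893) or the mean of its probes (0.97, 0.0665), nor with any array left out (0.86 to 1.02). With its second probe the difference was 1.0 (adjusted p = 0.126 over probes). Sele was 1.85 ± 0.40 higher at day 40 than at day 28 (adjusted p = 0.143, passing in 4 of 16 settings), with 1.94 in WT cells and 1.75 in Ccr2KO cells. Selp was 1.31 ± 0.39 higher (adjusted p = 0.237), with 1.56 and 1.06, and Ackr1 0.86 ± 0.34 (adjusted p = 0.332), with 0.91 and 0.81. In all, 7 of 8 genes were higher at day 40 than at day 28 in both genotypes, Icam2 being the exception, against 47.6% of all genes, and the count was 6 with normexp or quantile normalization and 4 with the authors' unscaled table or the pan-endothelial mean. The pan-endothelial mean was higher at day 40 too, and relative to it Jam2 differed between the days by 0.40 (no longer passing), Selp by 0.77, Ackr1 by 0.32 and Sele by 1.30, while Icam1, Icam2, Vcam1 and Cd34 had differences of −0.12, −0.48, −0.31 and −0.22.

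Setting each gene against the mean of the 15 pan-endothelial genes on the same array left the silica differences of Selp, Sele, Ackr1 and Jam2 in place. Relative to that mean, Selp was at −4.82, −1.99 and −1.16 in WT cells and at −3.46, −1.91 and −1.19 in Ccr2KO cells. Sele was at −7.41, −4.99 and −3.79 in WT cells and at −6.03, −5.15 and −3.75 in Ccr2KO cells. Ackr1 was at −7.28, −2.84 and −2.67 in WT cells and at −5.84, −2.75 and −2.28 in Ccr2KO cells. On this scale Ackr1 reached most of its height by day 28 in both genotypes, and Selp and Sele read higher again at day 40. The fitted silica differences were 2.58 ± 0.26 for Selp, 2.30 ± 0.27 for Sele, 3.92 ± 0.26 for Ackr1 and 1.15 ± 0.23 for Jam2. Cd34 passed as well with 0.90 ± 0.25 (limma adjusted p = 0.00772), against 0.72 ± 0.19 (0.0723) in the main fit. The SE of Cd34 grew along with its difference, so this call does not rest on a more precise value. This scaling moved the median of all genes from −0.01 to 0.18.

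**Figure D3:**
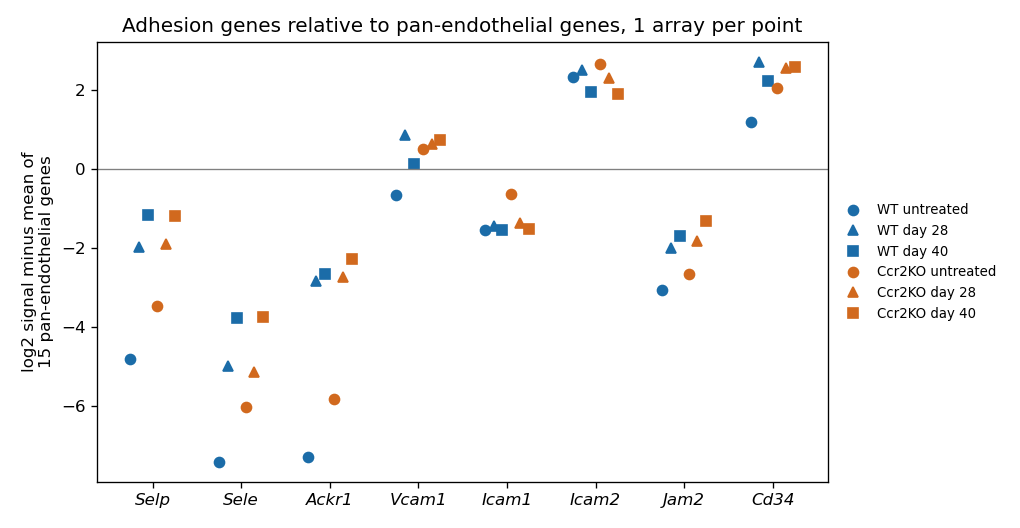
Log2 level of the 8 genes (horizontal axis) minus the mean log2 level of 15 pan-endothelial genes on the same array (vertical axis). Colour shows WT or Ccr2KO cells and marker shape the day, 1 array per point. Points are comparable within a gene across arrays and not between genes. Selp, Sele, Ackr1, Jam2 and Cd34 lay higher on all 4 silica arrays than on both untreated arrays. The share of all genes that did so on this scale was not counted, and the median silica difference of all genes on it was 0.18.

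Ccr2KO against WT gave 0 of 8 genes and 0% of all genes (limma, adjusted p below 0.05), although 1525 of 16421 genes had an unadjusted p below 0.05. Relative to the pan-endothelial mean, 387 genes (2.36%) passed, again with none of the 8. The differences of the 8 genes ran from −0.16 ± 0.13 for Icam2 to 0.46 ± 0.27 for Ackr1, with adjusted p from 0.655 to 0.843. Without either untreated array the Selp and Sele differences turned from 0.29 and 0.24 to −0.13 and −0.22.

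For 6 of the 8 genes the genotypes lay furthest apart in untreated cells, and the share of all genes that did so was not counted. In untreated cells, all 8 genes read higher in Ccr2KO than in WT cells, as did 58% of all genes. Of the 8 genes, 6 were higher by at least 0.5 log2, as were 8.4% of all genes. The untreated differences were 1.22 for Ackr1, 1.15 for Sele, 1.13 for Selp, 0.91 for Vcam1, 0.68 for Icam1 and 0.63 for Cd34, and they were 0.18 for Jam2 and 0.10 for Icam2. At day 28 the same 8 differences lay between −0.19 (Vcam1) and 0.21 (Jam2), and at day 40 between −0.42 (Icam2) and 0.25 (Vcam1). With quantile normalization 7 of the 8 were higher in untreated Ccr2KO cells and 6 were so with the authors' unscaled table, Icam2 turning to −0.052 and −0.18 and Jam2 to −0.11 in the table alone, and 5 and 4 were higher by 0.5. With 1 array per group on a day, none of these differences has a test of its own. Between the same untreated arrays, the leukocyte mean was 2.70 in WT cells and 1.65 in Ccr2KO cells, the type I alveolar mean 4.87 and 5.24, and the mean of 28 genes of endothelial activation and NF-kappaB targets 1.41 and 1.74. Their part in the untreated differences was not tested.

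**Figure D4:**
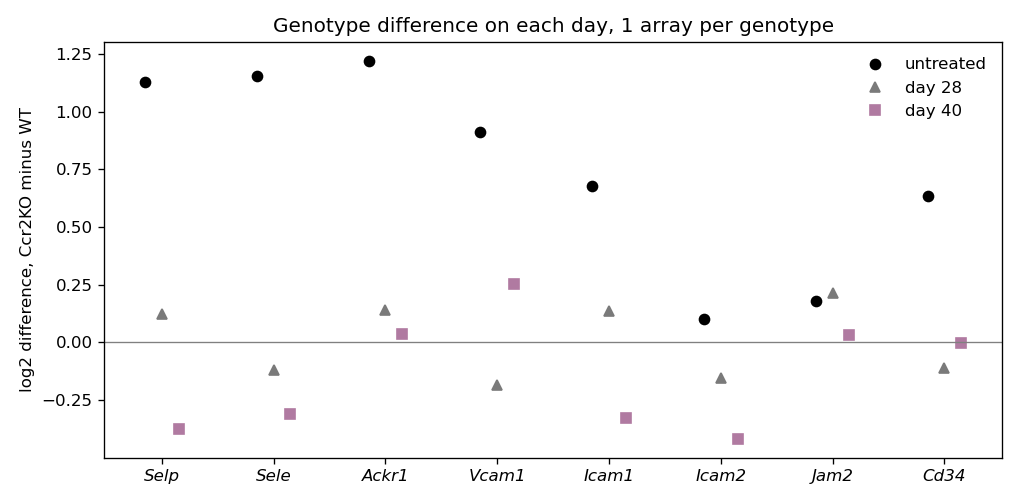
Log2 difference of Ccr2KO from WT cells (vertical axis) for the 8 genes (horizontal axis). Markers show untreated cells and days 28 and 40, 1 array per genotype and day. All 8 differences were above 0 in untreated cells, up to 1.22 for Ackr1, and lay between −0.42 and 0.25 after silica.

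The silica response was less positive or more negative in Ccr2KO than in WT cells for all 8 genes (7 with the authors' unscaled table, where Jam2 turned), as for 53.8% of all genes, and no difference of responses passed. Averaged over both silica days, Selp differed from untreated by 3.02 in WT cells and 1.77 in Ccr2KO cells, Sele by 2.80 and 1.43, Ackr1 by 4.30 and 3.17, Vcam1 by 0.92 and 0.04, Cd34 by 1.06 and 0.37, and Jam2 by 0.99 and 0.93. Icam1 differed by −0.18 in WT and −0.95 in Ccr2KO cells and Icam2 by −0.33 and −0.72, so for these 2 genes the Ccr2KO value lay further from untreated. The difference of responses (Ccr2KO minus WT) was −1.26 ± 1.20 for Selp, −1.37 ± 1.64 for Sele, −1.13 ± 0.79 for Ackr1 and −0.88 ± 0.35 for Vcam1. The fit behind these values had no term for day. Both silica days of a genotype counted as replicates, and the change between the days entered the SE. Jam2 changed between the days by 1.03 in WT and 0.85 in Ccr2KO cells and had an SE of 0.86. Vcam1 changed by 0.01 and 0.45. That no difference passed can therefore not be read as array noise alone. In the limma fit of genotype by silica, 0% of all genes passed (16 genes relative to the pan-endothelial mean), 619 had an unadjusted p below 0.05, and none of the 8 was among them. This comparison uses the same untreated arrays as the differences of untreated cells above, so the pair of descriptions is not independent.

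Selectins bind glycans that a set of enzymes builds on carrier proteins. Of 16 genes for selectin ligands and the enzymes that build them, 4 rose (Glycam1 included), 1 fell and 11 did not pass after silica (median 0.26). Glycam1, a mucin of high endothelial venules, was well above background on the 4 silica arrays and on neither untreated array, so it entered the test only through the silica side, where it had to be higher. It was at least 24.7-fold higher after silica, the untreated side being set to the dimmest probe of its array that was well above background. Because the direction of Glycam1 was fixed by the filter, its p-value is not given and its call has no weight. Madcam1, the mucosal addressin, rose by 1.54 ± 0.10, and the enzymes B3gnt3 and Fut4 rose by 0.86 and 0.72. Chst4, a sulfotransferase of high endothelial venules, fell by 1.38.

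Other genes of the vessel wall moved in both directions. Of 10 genes of Weibel-Palade bodies, the store of P-selectin, F8 (1.12 ± 0.11) and Cd63 (0.82) rose and 8 did not pass, Vwf among them (−0.16 ± 0.11). Of 16 junctional genes, Jam3, which encodes the partner of JAM-B, rose (0.77 ± 0.10), 5 fell (among them Ocln, Cav1, Cldn5 and Ctnnd1, by 0.95 to 0.48) and 10 did not pass. Of 9 other immunoglobulin-type or integrin ligands, Spp1 (4.06), Tnc (3.06), Fn1 (1.74) and Madcam1 rose, all but the last being matrix proteins, while Icam4, Vtn, Icam5 and Alcam fell. None of the 4 atypical chemokine receptors tested beside Ackr1 passed, with Ackr3 at 0.70 ± 0.16 (adjusted p = 0.0527) and Ackr4 at −0.94 ± 0.49 (adjusted p = 0.237).

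Of 28 genes of endothelial activation and NF-kappaB targets, 11 rose after silica and none fell (median 0.66), among them Ccl2 (2.30 ± 0.23), Lta (1.92), Cxcl2 (1.72), Nfkbie (1.27) and Il1b (1.26). Tnf, a cytokine that induces E-selectin, was at 1.0 ± 0.25 (limma adjusted p = 0.0655). The mean of this list was 1.41, 2.48 and 2.01 in WT cells and 1.74, 2.44 and 2.11 in Ccr2KO cells. That mean was higher at day 28 than at day 40, the opposite order to that of Selp and Sele. From day 28 to day 40, 4 of the 28 genes fell, namely Il1b (−2.71), Ltb (−2.52), Cxcl2 (−1.96) and Lta (−1.63). The other 24 did not pass, and the median of the list was −0.06, where 2.73% of all genes passed. Of 11 receptors on the leukocyte side of these contacts, only Cd44 rose over both silica days (1.28) and 10 did not pass, but the days differed: 7 rose at day 28 (median 1.32), and at day 40 1 rose and 4 fell (median −0.81). From day 28 to day 40, 7 of these 11 fell (median −2.24), among them Selplg (−2.44), Itgb2 (−2.44), Itga4 (−2.43) and Itgal (−1.97). The 8 leukocyte markers, Itgb2 among them, all fell over the same days (median −2.51). Their part in the values of the receptors and of the activation list was not tested.

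Markers of vessel types passed in part, where 19.8% of all genes passed, 10.5% as higher and 9.33% as lower. Of 15 pan-endothelial genes, Cldn5 (−0.79 ± 0.16) and Kdr (−0.55 ± 0.12) fell and 13 did not pass (median −0.18). Of 9 venous genes, Eln (1.44), Bst1 (1.05) and Nrp2 (0.57) rose and Slc6a2 (−0.68) fell (median −0.16), and elastin is also made by fibroblasts and smooth muscle. Of 10 alveolar capillary genes, Fibin (−1.98), Ednrb (−1.96) and Tbx2 (−1.25) fell and 7 did not pass (median −0.48).

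P-selectin is also a platelet protein and ACKR1 an erythrocyte protein. All 9 platelet genes fell after silica (median −2.57), with a mean log2 level of −0.61, −3.05 and −2.48 in WT cells and −0.64, −3.18 and −2.93 in Ccr2KO cells. Of 8 erythroid genes, 6 could be tested and 4 of them fell (median −2.39), with a mean of 0.23, −2.27 and −0.15 in WT cells and 0.14, −2.60 and −1.40 in Ccr2KO cells. The part of platelets in the Selp values and of erythroid cells in the Ackr1 values was not tested. Of 5 mast cell genes tested, 3 rose (median 2.87), with the highest mean level at day 28 in both genotypes. Of 8 leukocyte genes, 7 rose at day 28 (median 1.42), and at day 40 none rose and 2 fell (median −0.94). The part of these 2 cell types in the values of the 8 adhesion genes was not tested.

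**Figure D5:**
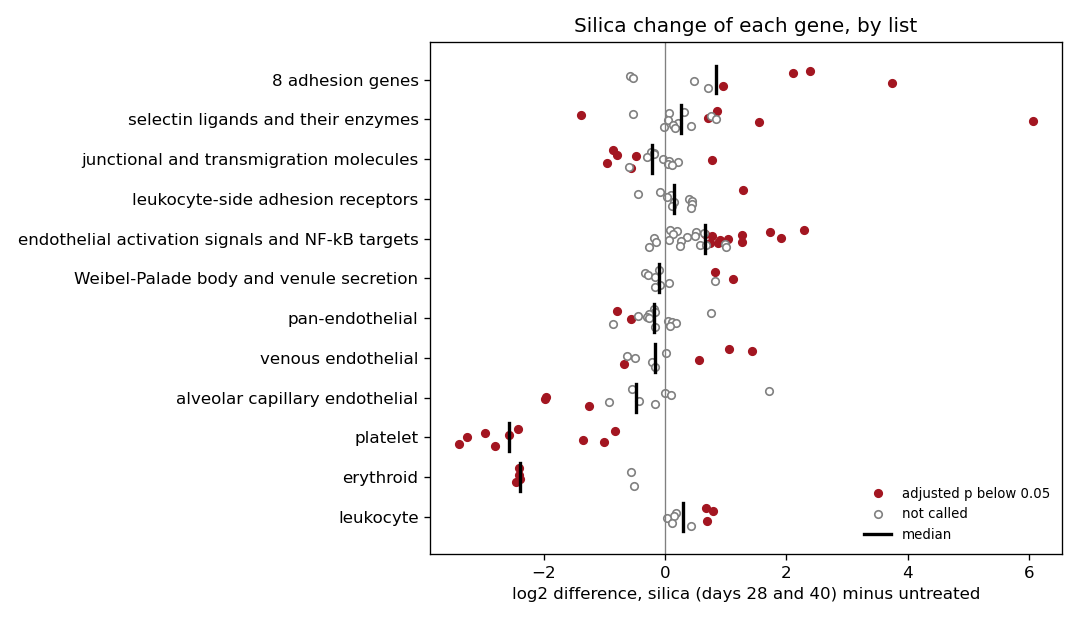
Log2 difference of silica against untreated cells (horizontal axis) for the genes of several lists (rows). Each point is a gene, filled where the limma adjusted p was below 0.05 and open where not, and a bar marks the median of the list. The median was 0.84 for the 8 adhesion genes, −2.57 for the 9 platelet genes and −0.18 for the 15 pan-endothelial genes.

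The patterns over the 6 arrays tied some members closely. Pearson's r was 0.979 between Selp and Sele, 0.965 between Selp and Ackr1, 0.967 between Selp and Cd34 and 0.917 between Vcam1 and Cd34, but 0.786 between Icam1 and Icam2 and −0.816 between Icam2 and Ackr1. These are descriptions over 6 arrays that share the silica and genotype design. The genes most like each member were, for Selp, Pcdhb14, Slc12a8 and Pcdhb13 (r of 0.996 each). For Jam2 they were Tmem252, Jag2 and F8 (0.996, 0.996 and 0.994), of which Tmem252 rose by 1.61 ± 0.11 after silica. For Sele, Plekha8 and Rgcc came first (0.997 each), for Vcam1 Usp14 and Khdrbs3 (0.993 each), for Icam1 Cystm1 (0.996) and for Cd34 Ctps (0.996). All were ranked over 6 arrays among 14250 genes.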

How the data were processed

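Per the labels, pooled RNA was labelled with Cy3 in a single colour, from 200 ng per sample. Per the file headers, the authors read the arrays (design 028005, annotation build mm9) on a G2600D scanner and extracted the deposited processed signal intensity with Feature Extraction 11.0.1.1, protocol GE1_1100_Jul11. A deposited table gave log2 values of this intensity for 30574 probes, unscaled (largest difference from the scanner values 5e-09), and R 2.15.1 is named in the submitters' processing notes.

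Of 62976 spots, the 59305 that were not controls were used, outlier spots (109 to 195 per array) were set missing, spots of a probe were averaged, and each array's log2 75th percentile was subtracted. No spot was saturated. Of 55681 probes, 27509 matched 1 RefSeq symbol. A probe entered the tests if at least 2 of 6 arrays had it well above background, and the brightest probe stood for its gene.

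limma 3.58.1 in R 4.3.3 fitted genotype plus day (residual degrees of freedom 2, prior 2.22), and genotype by silica (prior 1.87) for the difference of responses, with Benjamini-Hochberg adjustment over 16421 genes. The genotype by silica fit had no term for day and took both silica days as replicates. Each alternative setting estimated its own prior, which is not given. Counts of genes passing are therefore not directly comparable between settings. The fit of every probe on its own covered 21589 probes. The fits were tested on simulated data. The number of arrays limits the precision. The members and gene lists were chosen with earlier results of these data known, the erythroid list last, and support nothing by that choice. Some genes of these lists are not reported here. Named list genes passed the test or were picked for their role, and genes alike in pattern were the 3 with the highest Pearson's r per member.

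Alternatives were normexp background correction (offset 50, on the median signal), quantile normalization, the authors' table, centring on pan-endothelial genes, an unfiltered table, a filter requiring all 6 arrays, averaging a gene's probes, each probe on its own, a robust prior with an intensity trend, a block for slide row, silica as 1 factor of 2 levels, and leaving out each array. Slide row 1 held both untreated arrays and Ccr2KO day 28, and row 2 the other 3.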

Additional observations from a re-analysis of the deposited data

How the results depend on the processing

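Under the alternatives, silica against untreated gave 3 to 6 of the 8 genes called, the added ones being Cd34 as higher and Icam2 and Icam1 as lower, except 0 with the slide row as a block, 1 (Ackr1, 3.74 ± 0.43, limma adjusted p = 0.0145) with silica as 1 factor of 2 levels, and 0 to 5 when an array was left out. The fits with the row as a block, or without an array, have 1 residual degree of freedom. Day 28 gave 1 gene, and 3 with normexp or with probes above background on all 6 arrays, 4 with the authors' table or the intensity trend, 6 centred on pan-endothelial genes, 0 with the row block and 0 to 3 with an array left out (0 without either day 28 array). Day 40 gave 4, and 5 with normexp, the intensity trend or probes above background on all 6 arrays, 6 with the authors' table (Icam1 −0.71 and Icam2 −0.85 as lower), 0 with the row block and 0 to 5 with an array left out (0 without either day 28 array or Ccr2KO day 40, 1 without WT day 40). Day 40 against day 28 gave 1 (Jam2), and 2 with normexp (Sele and Jam2), 1 centred on pan-endothelial genes (Sele, not Jam2), 0 with quantile normalization, the authors' table, no filter, the mean of probes or the row block, and 0 to 1 with an array left out (Sele without either untreated array, never Jam2). The genotype comparison and the difference of responses gave 0 of the 8 throughout. Of 17 alternative settings for silica, Ackr1 passed in 14, Selp and Jam2 in 13, Sele in 11, Cd34 in 5, Vcam1 in 0 and, as lower, Icam2 in 5 and Icam1 in 1. The share of all genes called moved too. For silica it was 9% with no filter and 33.1% with the authors' table, against 19.8% in the main fit. At day 28 it was 26.5% centred on pan-endothelial genes. At day 40 it was 41% with the authors' table (median of all genes −0.34). Between the days it was 4.29% with normexp and 11.9% centred. At day 28, Icam2 was among the 4 genes as lower, with the authors' table (−0.56) and the intensity trend (−0.55). The cause of these changes was not tested.

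Signs turned only for values that had not passed. With the row block, Vcam1 was −0.10 for silica, −0.021 at day 28, −0.17 at day 40 and −0.15 between the days, and the Jam2 difference of responses 0.37. Between the days, the authors' table gave Icam2 −0.29, Vcam1 −0.12 and Cd34 −0.024, quantile normalization Icam2 −0.10, and pan-endothelial centring Icam1 −0.12, Icam2 −0.48, Vcam1 −0.31 and Cd34 −0.22. For Ccr2KO against WT, the authors' table gave Icam1 −0.065, Jam2 −0.086 and Cd34 −0.053, and pan-endothelial centring Icam2 0.021. The Jam2 difference of responses was 0.030 with the authors' table, 0.13 with the mean of probes and 0.32 with each probe on its own. With an array left out, Vcam1 ran from −0.075 to 0.80 at day 28 and from −0.15 to 0.62 between the days, Icam1 from −0.74 to 0.030 at day 40, Icam2 from −0.14 to 0.25 between the days, the Ccr2KO difference from −0.13 to 0.63 for Selp, −0.22 to 0.52 for Sele, −0.10 to 0.41 for Icam1 and −0.057 to 0.32 for Cd34, and the Jam2 difference of responses from −0.57 to 0.46. The difference of responses could not be fitted without an untreated array. No paired analysis was possible because each group has 1 array and the labels carry no shared replicate numbers.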
